A study of Mus musculus with 11 samples.

Results

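Qa-1 and the class I antigen presentation machinery were described in CD8+ regulatory T cells (CD8+ Tregs) of young and middle-aged mice. The 10 genes were taken by name: H2-T23, which encodes Qa-1, H2-K1, H2-D1, H2-Q7, B2m, Tap1, Tap2, Tapbp, Erap1 and Nlrc5. They are 10 of 54532 genes in the count table, and all 10 were among the 13129 genes that passed the filter on low counts. The cells were sorted as CD8+CD44+Ly49+CD122+ from spleens of wild-type C57BL/6J mice, and each of the 11 libraries was made from total RNA. Young mice (labelled 2 to 3 months) gave 3 male and 3 female libraries. Middle-aged mice (labelled Old, 10 to 12 months) gave 2 male and 3 female libraries. The sources used here do not say whether cells of several mice were pooled, so the p-values measure the spread between these libraries.

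Class I molecules show peptides on the cell surface. Proteasomes cut the peptides, the TAP transporter carries them into the endoplasmic reticulum, the aminopeptidase Erap1 trims them, tapasin helps to load them, and a heavy chain paired with beta 2-microglobulin displays them. Nlrc5 is the transactivator that works with an X and Y box enhanceosome at class I promoters. H2-K1 and H2-D1 encode the classical heavy chains, of which several bind Ly49 receptors, while the non-classical Qa-1 presents a leader peptide to CD94/NKG2 receptors and is the molecule that CD8+ Tregs recognise on target cells.

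Total counts ranged from 6135736 in young male 1 to 24394532 in young female 2, and young female 1 had 8421396. A count of 0 therefore allowed up to 0.119 to 0.543 CPM (counts scaled to a common library size with TMM factors), and such limits cover counting error only. The 6 CD8 T cell markers summed to 5178 to 12886 CPM, and the 4 markers of CD4+ T cells to 1.39 to 32.4 CPM. Cd44 and Il2rb (CD122), which were sorted on, and Ikzf2 (Helios), a transcription factor of these cells that was not, summed to 633 CPM in young male 1 and to 1498 to 2769 CPM in the other libraries. The 6 myeloid markers summed to 1217 CPM in middle-aged female 2 and to 43.1 to 331 CPM elsewhere, and the B cell and plasma cell sums were also highest in that library (364 and 351 CPM). The 6 erythroid and platelet markers summed to 21.9 to 116 CPM in young and 0.998 to 28.0 CPM in middle-aged libraries. The 9 NK cell markers summed to 2858 to 9872 CPM and 2947 to 7656 CPM. In the edgeR test of age given below, 2 of the former and 3 of the latter were lower in middle age at an unadjusted p under 0.05 (0.990% of all genes tested). The part of these differences in the results below was not tested. In these bulk samples, fewer cells expressing a gene and less RNA per cell cannot be told apart.

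Because Nlrc5 and its partners act at promoters, the promoters of the genes that the age comparison turns on are shown first. RefSeq (GRCm38.p6) gave a promoter, 250 bases before to 50 after the start, for 8 of the 10 genes and for H2-Q6 and H2-Q10. Capitals mark 3 motifs on either strand: the interferon-stimulated response element core GAAANNGAA, the X2 box core TGACG and the Y box CCAAT. Of all 32817 promoters of that length, 8.55%, 20.8% and 37.4% held them. H2-T23 is shown as the Qa-1 gene, H2-D1 as a classical heavy chain, H2-Q7 and H2-Q10 as the Q region genes with the largest age difference among the members and among the other class I heavy chain genes tested, and B2m as the shared light chain.
H2-T23, chr17:36032652-36032951, minus strand: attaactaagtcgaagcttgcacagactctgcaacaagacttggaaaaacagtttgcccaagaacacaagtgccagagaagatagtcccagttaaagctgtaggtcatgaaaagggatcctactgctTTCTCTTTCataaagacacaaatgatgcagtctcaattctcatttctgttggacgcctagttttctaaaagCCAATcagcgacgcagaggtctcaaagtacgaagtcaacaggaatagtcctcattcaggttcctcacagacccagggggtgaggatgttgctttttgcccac
H2-D1, chr17:35262844-35263143, plus strand: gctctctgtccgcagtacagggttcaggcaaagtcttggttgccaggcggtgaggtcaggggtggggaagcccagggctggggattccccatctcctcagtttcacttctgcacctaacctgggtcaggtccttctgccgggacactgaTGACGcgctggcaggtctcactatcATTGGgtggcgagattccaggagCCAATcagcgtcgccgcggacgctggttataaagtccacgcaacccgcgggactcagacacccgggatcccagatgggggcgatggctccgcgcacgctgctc
H2-Q7, chr17:35438905-35439204, plus strand: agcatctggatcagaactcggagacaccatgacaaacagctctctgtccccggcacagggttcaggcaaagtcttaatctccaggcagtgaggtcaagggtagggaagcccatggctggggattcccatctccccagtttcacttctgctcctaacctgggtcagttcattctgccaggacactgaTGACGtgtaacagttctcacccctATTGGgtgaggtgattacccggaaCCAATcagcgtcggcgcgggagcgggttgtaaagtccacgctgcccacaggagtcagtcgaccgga
H2-Q10, chr17:35469839-35470138, plus strand: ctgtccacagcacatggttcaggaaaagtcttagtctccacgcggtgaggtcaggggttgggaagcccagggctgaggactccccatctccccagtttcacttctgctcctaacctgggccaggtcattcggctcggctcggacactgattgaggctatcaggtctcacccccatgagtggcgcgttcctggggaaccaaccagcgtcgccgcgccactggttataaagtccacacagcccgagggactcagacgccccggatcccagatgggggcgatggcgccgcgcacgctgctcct
B2m, chr2:122147437-122147736, plus strand: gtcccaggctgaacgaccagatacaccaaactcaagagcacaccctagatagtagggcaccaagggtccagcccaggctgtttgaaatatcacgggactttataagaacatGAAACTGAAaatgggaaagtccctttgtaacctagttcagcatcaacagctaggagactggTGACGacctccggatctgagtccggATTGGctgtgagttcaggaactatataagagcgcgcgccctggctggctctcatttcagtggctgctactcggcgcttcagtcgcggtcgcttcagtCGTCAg

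The promoters differed in which motifs they held. The X2 box core was found in 5 of the 8 members searched (H2-K1, H2-D1, H2-Q7, B2m and Tap1), the Y box in 7 and the interferon core in 3 (H2-T23, B2m and Erap1). In H2-Q7 the X2 box core lay 64 bases before the start and was followed by 2 Y boxes, on opposite strands, at 40 and 16 bases before it. H2-T23 held an interferon core and 1 Y box, and the letters TGACG were not in its window. None of the 3 motifs was in the H2-Q10 window. Over these 300 bases, compared end to end, the promoter of H2-Q10 was 82% identical to that of H2-D1 and 57.3% identical to that of H2-Q7. An offset between annotated starts lowers such a value. The 2 Y boxes lay 76 and 53 bases before the start in H2-D1, against 40 and 16 in H2-Q7. The 57.3% is therefore not a measure of sequence divergence alone. A match is a description of letters and not of a bound site. Only exact letters were counted, so a promoter without a match may still hold a variant of the element. The H2-D1, H2-Q7 and H2-Q10 windows, for example, all hold gtttcacttc, which the interferon pattern does not match.

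The members' levels spanned a wide range on a per-length scale (TPM, counts divided by gene length and by their sum in the library), the scale used for comparing genes. B2m was highest at 9104 ± 1838 TPM (SD, n = 11) and ranked 4th among all genes. H2-D1 followed at 5954 ± 1001 TPM and H2-K1 at 3868 ± 589 TPM, in 5th and 16th place. H2-Q7 (573 ± 208 TPM), Tapbp (516 ± 168 TPM) and H2-T23 (434 ± 119 TPM) formed a middle group. H2-Q7 was above Tapbp in 8 of 11 libraries and Tapbp above H2-T23 in 9, so these neighbours were not separated in every library. Tap2 (129 ± 49.7 TPM) and Tap1 (106 ± 43.6 TPM), the subunits of the peptide transporter, kept their order in 8 of 11 libraries. Erap1 (41.5 ± 20.2 TPM) and Nlrc5 (27.9 ± 19.8 TPM) were lowest, and Erap1 was above Nlrc5 in 11 of 11.

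The comparison of middle-aged with young CD8+ Tregs asked how the transcripts of these cells change towards the middle of life. None of the 10 members passed an adjusted p under 0.05 in edgeR's quasi-likelihood test with sex as a term, where 0.0229% of all genes tested did. None passed an unadjusted p under 0.05 in that test either (2.00% of all genes were higher and 0.990% lower at that level). DESeq2 and limma voom also called 0 members after adjustment, and at an unadjusted p under 0.05 each gave 2, H2-K1 and H2-Q7. The share of all genes at that level in DESeq2 and limma voom is not given here, so this count cannot be set against it. The log2 fold changes, middle-aged over young, ranged from -0.08 to 0.47 with a median of 0.22, against a median of 0.0028 over all genes tested. They were above 0 for 8 members and below 0 for Tap1 and H2-T23. Of the 13129 genes tested, 6616 were above 0, and the median absolute log2 fold change over all genes tested was 0.21. A shift of the members as a group was not tested. Every member's edgeR adjusted p was 1.00.

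**Figure D1:**
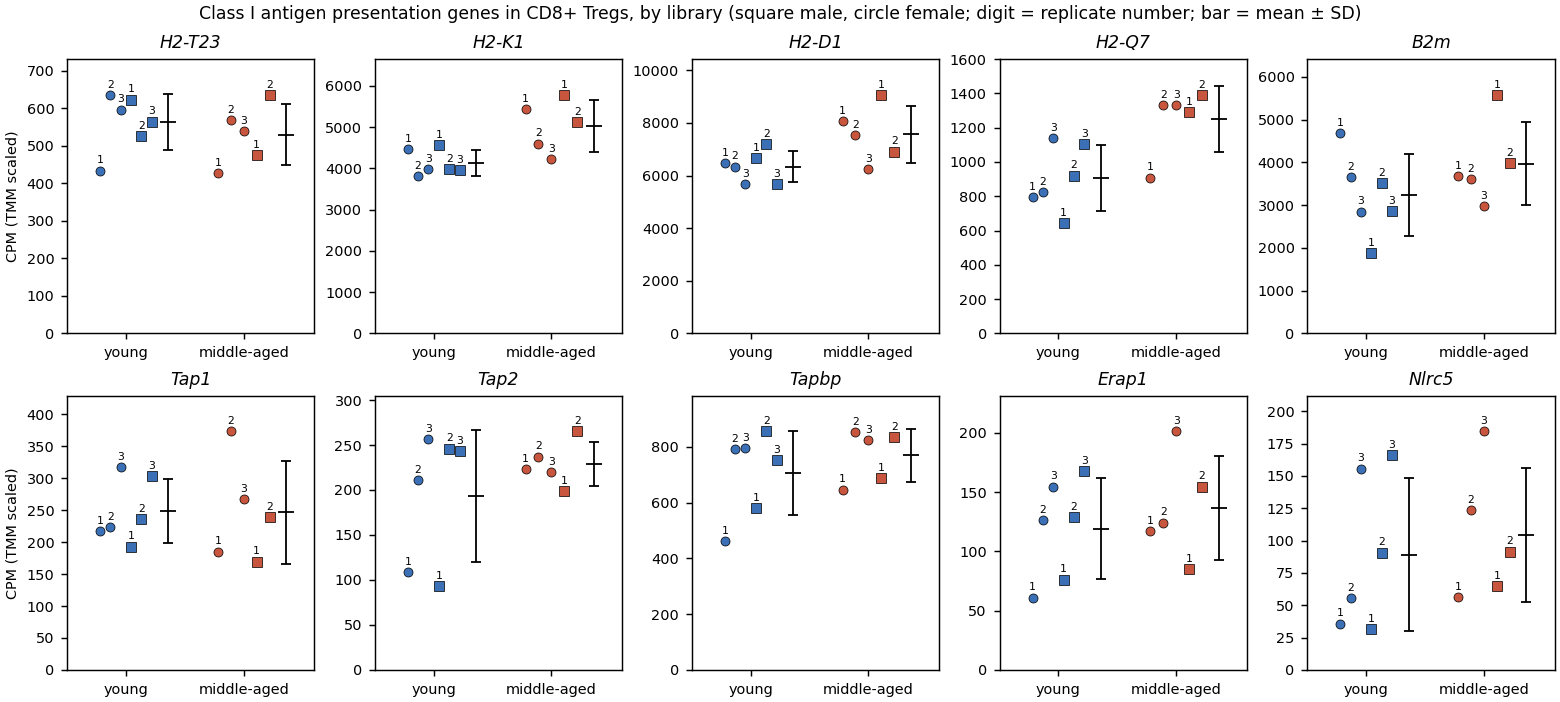
Level of each member (CPM, TMM scaled, linear axes from 0) in the 6 young and 5 middle-aged libraries. Squares are males, circles females, digits the replicate number, and the black bar is the mean with its SD. The H2-T23 groups overlap throughout, whereas 4 of 5 middle-aged libraries lie above every young library for H2-K1 and H2-Q7.

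Qa-1 was measured at similar levels at both ages. H2-T23 (GRCm38 chr17:36029773-36032855, minus strand) ranged from 434 to 635 CPM in the young libraries, with a median of 580 CPM. The middle-aged libraries had 475 and 635 CPM in males and 426, 568 and 540 CPM in females. The groups overlapped: 1 of 5 middle-aged libraries was above the young median and 0 above the young maximum. Group means were 563 ± 74.9 CPM (SD, n = 6) and 529 ± 81.4 CPM (SD, n = 5). The log2 fold change was -0.08 with an SE of 0.19 and a 95% interval from -0.50 to 0.34, so the data allow a fold between 0.705 and 1.26. An exact 2-sided permutation test over the 462 ways to place the libraries gave p = 0.487.

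H2-Q7, a Qa-2 heavy chain gene of the Q region, had the largest difference among the members. It ranged from 641 to 1141 CPM in young libraries (mean 904 ± 192, SD, n = 6). Middle-aged males had 1291 and 1392 CPM, and middle-aged females 908, 1332 and 1330 CPM (mean 1251 ± 195, SD, n = 5). Middle-aged female 1, at 908 CPM, was the library that stayed inside the young range. The log2 fold change was 0.47 (SE 0.22, 95% interval -0.00 to 0.95), with an unadjusted p of 0.0518 in edgeR and an exact permutation p of 0.0281. Without middle-aged female 2, which had the highest myeloid marker sum, the log2 fold change was 0.44.

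The classical heavy chains lay above the young mean as well, by less than the test could call. H2-K1 had 3814 to 4563 CPM in young libraries, and 5784, 5123, 5443, 4602 and 4219 CPM in the middle-aged ones. Its group means were 4129 ± 310 CPM (n = 6) and 5034 ± 630 CPM (n = 5), with a log2 fold change of 0.29 (SE 0.18, 95% interval -0.10 to 0.69). H2-D1 averaged 6337 ± 586 CPM across young libraries and 7568 ± 1081 CPM across middle-aged ones, with a log2 fold change of 0.27 (SE 0.19), and 3 of 5 middle-aged libraries were above the young maximum. The exact permutation p-values, unadjusted, were 0.0130 for H2-K1 and 0.0411 for H2-D1. With H2-Q7 this made 3 of 10 members under 0.05 in that test, all higher in middle age, where 3.33% of all genes tested were higher and 1.49% lower at that level. The permutation test carries no sex term. The members were chosen with earlier results of these data known, and no further p is given for them as a group.

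The 4 heavy chain genes summed to 11311 to 12613 CPM across young libraries and 12340 to 16617 CPM across middle-aged ones. A sum over 31 class I heavy chain rows does not depend on how shared reads were divided among those rows. Shared reads that were dropped, or given to a gene outside them such as H2-Bl, could still change it. This sum was 12404 to 13566 CPM across young libraries and 13592 to 17829 CPM across middle-aged ones. These ranges did not overlap, and the difference in mean log2 was 0.27. It is given as a description, with no test. Of the 31-base words in the transcripts, 25.8% of H2-T23, 22.8% of H2-K1, 26.9% of H2-D1 and 39.2% of H2-Q7 were shared with other genes, and how shared reads were assigned is not given in the sources used here.

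Qa-1 relative to H2-Q7 was lower in middle age. On the per-length scale, H2-T23 was 75.3 to 143% of H2-Q7 in young libraries and 54.3 to 69.2% in middle-aged ones. This was 1 of 7 ratios between members computed, and it was singled out after its values were seen, so no test is given. The difference in mean log2 ratio was -0.57. It was -0.81, -0.59 and -0.35 among libraries numbered 1, 2 and 3.

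The light chain, peptide transporter and loading genes did not separate by age. B2m averaged 3240 ± 951 CPM in young (n = 6) and 3967 ± 974 CPM in middle-aged libraries (n = 5), a log2 fold change of 0.29 (SE 0.27). It ran from 1874 CPM in young male 1 to 5581 CPM in middle-aged male 1, and the log2 fold change was 0.16 without the former, 0.11 without the latter and 0.44 without young female 1. Its log2 fold change was 0.80 in males alone and -0.11 in females alone, and the age by sex term had an unadjusted p of 0.0776 in edgeR (adjusted p 1.00). Tap1, a subunit of the peptide transporter, had 249 ± 50.5 and 247 ± 81.0 CPM. Tap2, its partner, had 193 ± 73.3 and 229 ± 24.4 CPM, with 92.8 and 108 CPM in young male 1 and young female 1 and 199 to 265 CPM in the other 9. Tapbp, which encodes tapasin, had 706 ± 152 and 769 ± 94.8 CPM, and Erap1 had 119 ± 42.5 and 136 ± 43.8 CPM. Nlrc5 ranged from 31.6 to 166 CPM in young and from 56.2 to 184 CPM in middle-aged libraries. Its log2 fold change was 0.18 with a 95% interval from -0.92 to 1.29, the widest among the members. It was -0.0485 without young female 1 and -0.0844 without middle-aged female 3. Tap1 overlaps Psmb9 (225 to 432 CPM) and Erap1 overlaps Cast (61.7 to 208 CPM) on the opposite strand, and strand-specific counting is not given in the sources used here.

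**Figure D2:**
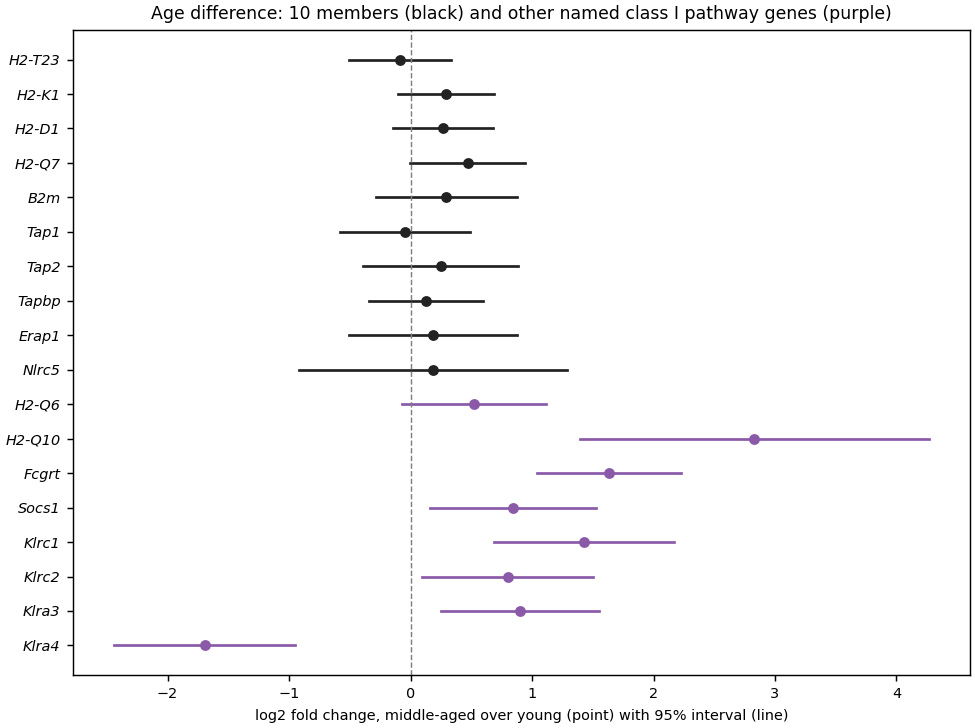
Log2 fold change, middle-aged over young, from edgeR (points) with 95% intervals (lines) for the 10 members (black) and 8 other genes of the class I pathway lists (purple). The purple genes are H2-Q6 and the 7 list genes with an unadjusted p under 0.05 in edgeR. All 10 member intervals include 0. Those of the 7 exclude 0 because of that choice, so the contrast is not a result. Farthest from 0 were H2-Q10 (2.83), Klra4 (-1.70) and Fcgrt (1.63).

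Sex did not separate the members either: 0 of 10 had an adjusted p under 0.05 for sex in edgeR (0.0381% of all genes tested), and 0 of 10 for the age by sex term (0% of all genes tested).

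Among 82 tested genes of 8 other lists of the pathway, 7 had an unadjusted p under 0.05 and none an adjusted p under 0.05 in edgeR. Of all genes tested, 2.00% were higher and 0.990% lower at that unadjusted level. The lists were chosen with earlier results of these data known. H2-Q10, a heavy chain gene of the Q region at chr17:35470089-35474563, had the largest fold of the 82. It had 3.98, 16.4 and 21.4 CPM in young males and 0.417, 10.8 and 15.1 CPM in young females. Middle-aged males had 71.6 and 70.8 CPM and middle-aged females 48.5, 103 and 96.7 CPM. All 5 middle-aged libraries were above all 6 young ones, a separation that 1.31% of all genes tested showed. The log2 fold change was 2.83 (SE 0.66, 95% interval 1.39 to 4.27), with an unadjusted p of 0.00107 and an adjusted p of 0.334 in edgeR. The adjusted p was 0.00212 in DESeq2 and 0.00485 in limma voom. In simulated counts, 27.0% of the DESeq2 calls at an adjusted p under 0.05 were false, against 4.21% in limma voom and 4.26% in edgeR. Without young female 1, where 3 counts were found, the log2 fold change was 2.50, and without middle-aged female 2 it was 2.69. H2-Q10 shares 30.3% of its 31-base words with other genes, 21.9% with H2-Q7. H2-Q6, another Q region gene, averaged 398 ± 135 and 566 ± 89.9 CPM (log2 fold change 0.52, SE 0.27, unadjusted p 0.0805 in edgeR).

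**Figure D3:**
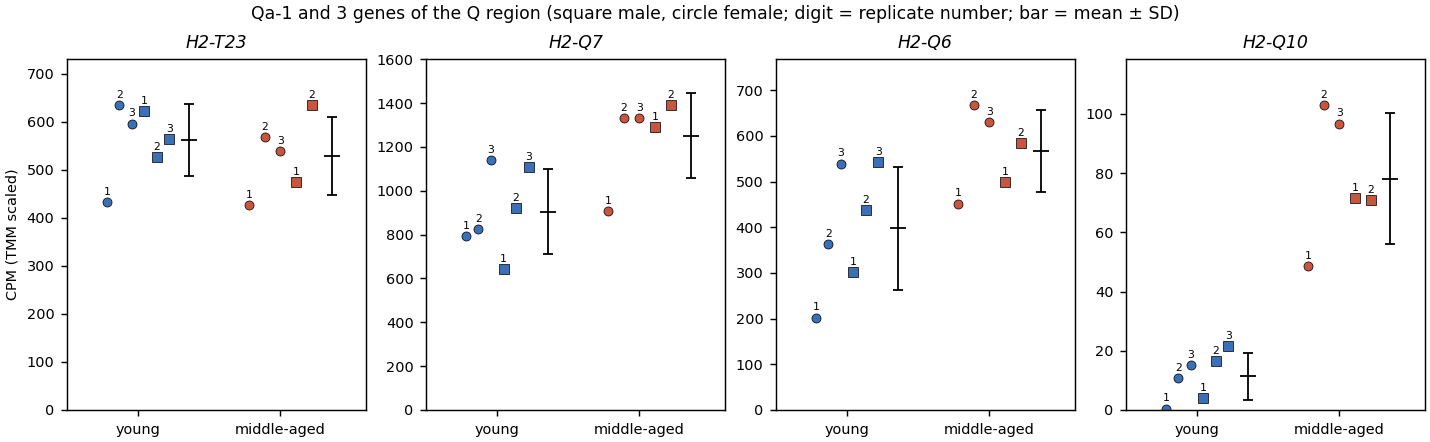
Levels (CPM, linear axes from 0) of H2-T23 and of H2-Q7, H2-Q6 and H2-Q10 in each library, with symbols and bars as in the plot of members by library. The 5 middle-aged H2-Q10 values (48.5 to 103 CPM) lie above all young values (0.417 to 21.4 CPM), whereas the H2-T23 groups overlap.

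Fcgrt encodes the heavy chain of the neonatal Fc receptor, a class I-like protein that carries IgG and albumin. It ranged from 86.1 to 138 CPM in young libraries. Middle-aged males had 566 and 531 CPM, and middle-aged females 254, 167 and 328 CPM, so the groups did not overlap. The log2 fold change was 1.63 (SE 0.27), with an adjusted p of 0.126 in edgeR, 2.64e-05 in DESeq2 and 7.74e-04 in limma voom. It was 1.80 without middle-aged female 2.

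Of the class I heavy chains outside the members, 7 of 20 were tested, 1 (H2-Q10) was higher and 0 lower at an unadjusted p under 0.05, and the median log2 fold change was 0.33. Of the other non-classical genes, 5 of 6 were tested and Fcgrt was the 1 below that threshold, with a median of -0.26. All 7 genes of the immunoproteasome and its activator (median 0.02), 3 constitutive catalytic subunits (median -0.10), 10 peptide loading and chaperone genes (median 0.12) and 10 class II genes (median 0.36) were tested with 0 in either direction. The genes with the most CPM in each of these lists, over the 11 libraries, were Psme2 (young 920 ± 513 CPM, middle-aged 933 ± 345 CPM), Psmb6 (525 ± 409 and 444 ± 216 CPM), Hspa5 (663 ± 185 and 715 ± 208 CPM) and Cd74 (504 ± 197 and 721 ± 335 CPM). In the peptide loading list Pdia3 was close to Hspa5, at 624 ± 64.6 and 741 ± 93.1 CPM. Cd74 was highest, at 1250 CPM, in middle-aged female 2.

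Of 20 enhanceosome and interferon control genes, 1 was higher at an unadjusted p under 0.05 and 0 lower, with a median of -0.03. This was Socs1, an inhibitor of cytokine signalling through Jak kinases, at 91.4 ± 32.5 and 165 ± 68.8 CPM (log2 fold change 0.85, SE 0.31, unadjusted p 0.0194 and adjusted p 1.00 in edgeR, 0.0433 in limma voom). Jak1, with the most CPM in the list, had 1350 ± 466 and 1373 ± 503 CPM. Of 20 receptors of class I and Qa-1, 3 were higher and 1 lower at that level (2.00% and 0.990% of all genes tested), with a median of 0.19. Klrc1 (NKG2A, an inhibitory receptor for Qa-1) had a log2 fold change of 1.43, Klrc2 (NKG2C) of 0.80, Klra3 of 0.90 and Klra4 of -1.70, and Cd8b1, with the most CPM, of -0.19. None of these 4 below the threshold passed adjustment in edgeR (adjusted p 0.228 to 1.00). In DESeq2 and limma voom, the adjusted p was 0.0141 and 0.0143 for Klrc1 and 4.07e-04 and 0.00637 for Klra4. Klrc2 and Klra3 passed adjustment in neither. The age difference in log2 CPM of Klrc2 was 1.79, 0.48 and 0.0844 within libraries numbered 1, 2 and 3. In libraries numbered 2 and 3 only, the log2 fold change was 0.20 for Klrc2 and 0.56 for Klra3, and for Klrc2 it was 0.34 in limma voom. Klrc1 shares 53.1% of its 31-base words with other genes.

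Levels of many genes, several members among them, followed the replicate number in the labels, a pattern found after the data were examined. The labels do not say what a number marks. Nlrc5 averaged 47.2, 90.3 and 169 CPM in libraries numbered 1, 2 and 3. Its log2 difference between numbers 3 and 1 was 2.02 (SE 0.22), with an adjusted p of 4.85e-04 in edgeR. Erap1 differed by 1.12 (SE 0.18, adjusted p 0.00342 in edgeR) and Tapbp by 0.47 (SE 0.13, adjusted p 0.0227 in edgeR). These are 3 of 10 members, near the 26.3% of all genes tested that passed the same threshold, so the pattern is not particular to the members. H2-T23, H2-K1, H2-D1, B2m, H2-Q7, Tap1 and Tap2 did not pass. H2-T23 averaged 489, 591 and 567 CPM.

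The libraries also differed by gene length in step with that number. The slope of a gene's log2 deviation on log2 gene length was -0.265 to -0.094 in libraries numbered 1, 0.014 to 0.089 in those numbered 2 and 0.158 to 0.183 in those numbered 3. Nlrc5 (8493 bases) and Erap1 (7280 bases) are the longest members and B2m (860 bases) the shortest. The part of this slope in the differences by number was not tested. Each number held libraries of both ages. Within numbers 1, 2 and 3, the age difference in log2 CPM was -0.21, 0.06 and -0.10 for H2-T23, 0.60, 0.64 and 0.24 for H2-Q7, and 0.84, 0.58 and 0.20 for Nlrc5.

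**Figure D4:**
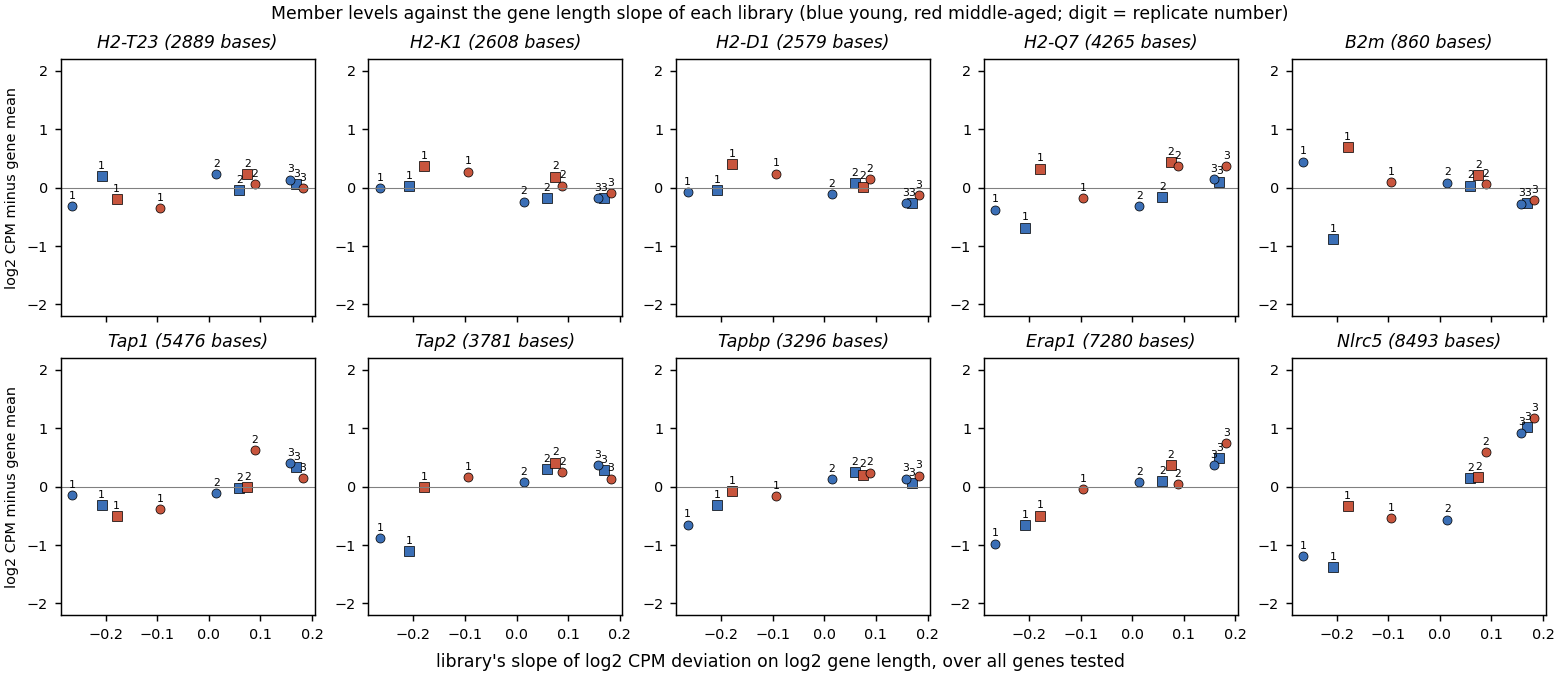
Log2 CPM of each member minus its mean over the 11 libraries, against the slope of log2 deviation on log2 gene length in the same library. Blue is young, red middle-aged, squares males, circles females and digits the replicate number. Nlrc5 and Erap1 are on average lowest in the libraries numbered 1 and highest in those numbered 3, an order that H2-T23 does not show.

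Across the 11 libraries, Nlrc5 was correlated with several of the other members, as tested over 9 relations by permutation. Pearson's r was 0.88 with Erap1 (rho 0.88, adjusted permutation p 0.00288), 0.78 with Tap2 (rho 0.65, adjusted permutation p 0.00711), 0.77 with H2-Q7 (rho 0.75, adjusted permutation p 0.0144), 0.76 with Tapbp (rho 0.62, adjusted permutation p 0.0142) and 0.75 with Tap1 (rho 0.76, adjusted permutation p 0.0144). For H2-T23, B2m, H2-K1 and H2-D1 it was 0.26, -0.10, -0.33 and -0.35 and did not pass. Without the 2 libraries farthest from the median of Nlrc5, young male 1 and young female 1, none of the 9 had an adjusted permutation p under 0.05. There r was 0.78 for Tap1 and 0.77 for Erap1 (adjusted permutation p 0.0631 for each, unadjusted 0.0145 and 0.0128). For Tap2, Tapbp and H2-Q7 it was 0.47, 0.50 and 0.53 (adjusted permutation p 0.229), so the calls for these genes rest on those 2 libraries. For Tap1 r did not fall, and the test then had fewer libraries. For B2m and H2-D1 r was -0.71 and -0.65 there (adjusted permutation p 0.0631 and 0.133). With the mean of each replicate number removed, r was 0.91 with H2-D1, 0.85 with H2-Q7 and 0.80 with H2-K1 (adjusted permutation p 6.30e-04, 0.00517 and 0.0104). For Tap2 and Tapbp r was 0.73 and 0.66 (adjusted permutation p 0.0207 and 0.0434). The permutation did not allow for the means removed, so all p-values of this alternative are too small. Those under 0.05 are not taken as calls. For Erap1, B2m, Tap1 and H2-T23 r was 0.48, 0.48, 0.22 and -0.53 and did not pass (adjusted permutation p 0.140 to 0.515). The order of the relations therefore changed with the replicate number taken out.

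The 5 tested genes outside the members whose log2 CPM was most like that of H2-T23 over the 11 libraries were Gm45828 (r = 0.96), Tomt (0.89), Srp72 (0.88), Prpf18 (0.87) and Med15 (0.87). Gm45828 and Tomt were low, at 0.805 and 1.16 CPM on average in young libraries. Within the members, r over the same libraries was 0.88 for Erap1 and Nlrc5, 0.85 for Tap2 and Tapbp, 0.84 for Tapbp and Erap1 and 0.82 for H2-K1 and H2-D1, and H2-T23 had r = -0.46 with H2-K1. These correlations are descriptions over libraries that differ in depth and replicate number.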

How the data were processed

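Total RNA of sorted CD8+ Tregs was sequenced after library preparation with the Takara SMARTer high-sensitivity kit. The authors deposited a table of raw counts per gene for the 11 libraries, with gene lengths and coordinates, which are GRCm38 (53499 of 54409 GENCODE M21 genes had the same start and end). The submitters' processing notes name kallisto and mm10 without a role, and the aligner, strand setting and handling of shared reads are not given in the sources used here. The study's methods name no test for the sequencing. The files differ in depth, from 6135736 to 24394532 counts, and precision is lower in the shallow libraries.

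From the deposited counts, age was tested with edgeR 4.0.16 (TMM factors, filterByExpr with a minimum count of 10 and a total of 15, robust quasi-likelihood fit, sex and age, Benjamini-Hochberg over 13129 genes) in R 4.3.3. The threshold was an adjusted p of 0.05. Single genes were also tested by exact 2-sided permutation of log2 CPM (prior count 2, smallest p 0.00216). DESeq2 1.42.0, limma 3.58.1 (voom with quality weights), other scalings and filters, a replicate block, depth, each sex and each replicate left out were alternatives. Scripts were tested on simulated counts in which 200 genes had a log2 fold change of 2. At an adjusted p under 0.05, edgeR recovered 45% of them, limma voom 45.5% and DESeq2 65%. False calls made up 4.26%, 4.21% and 27.0% of their calls. Motifs were searched in RefSeq promoters.

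All 10 members were named. Of each list, genes with an unadjusted p under 0.05 (up to 6) and the highest expressed gene were named, and the 5 genes most like H2-T23. The members and lists were chosen with earlier results of these data known. Protein sequences were not used here.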

Additional observations from a re-analysis of the deposited data

Results flagged for a closer look

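Each of 24 named genes was searched, within the 6 young and within the 5 middle-aged libraries, for a library far from the rest. Of these 48 groups, 4 stood out by Dixon's 95% critical value, and chance gives about 1 in 20. H2-Q7 in middle-aged female 1 was 908 CPM, where the next library had 1291 CPM. Socs1 in young female 1 was 158 CPM, against 82.6 CPM in the next young library. Klra4 in middle-aged female 2 was 26.4 CPM, against 11.5 CPM in the next middle-aged library. Klrc1 in young male 1 was 226 CPM, against 142 CPM in the next young library.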

How the results depend on the processing

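No alternative gave a member an adjusted p under 0.05 (0 in each of 26). Over all genes the adjusted calls were 112 in DESeq2, 138 in limma voom, 17 with at least 1 count in any library, 5 with at least 10 counts in every library, 5 without the sex term, 19 with the replicate block shared by both sexes, 6 in libraries over 10000000 counts, 0 in males alone and 0 in females alone, and 1 to 4 with a replicate left out. Members with an unadjusted p under 0.05 numbered 2 in DESeq2, 2 in limma voom, 1 without the sex term, 2 with the replicate block within sex, 4 with the block shared by both sexes, 1 in libraries over 10000000 counts, 1 in libraries numbered 2 and 3 only (chosen after the data were seen) and 0 to 1 with a replicate left out. Pathway list genes with an unadjusted p under 0.05 numbered 15 in limma voom, 13 with the block within sex, 17 with the block shared by both sexes and 4 to 10 with a replicate left out. The shares of all genes at an unadjusted p under 0.05 are not given for these settings. The unadjusted counts of members and list genes therefore cannot be set against them. With an adjusted p under 0.05 they numbered 4 in DESeq2, 5 in limma voom, 2 with at least 1 count in any library, 2 with the block shared by both sexes and 1 in libraries over 10000000 counts. The replicate numbers were not used as pairs in the main fit. The 15 same-numbered pairs had correlations of 0.025 to 0.558 (median 0.353), and the 30 other pairs -0.508 to 0.397 (median -0.186). With the block within sex and shared by both sexes, Nlrc5 had a log2 fold change of 0.62 and 0.60 (unadjusted p 0.0176 and 0.00683, adjusted p 0.697 and 0.333 in edgeR), against 0.18 without a block. H2-Q7 had 0.54 with either block (unadjusted p 0.00941 and 0.00175, adjusted p 0.597 and 0.192 in edgeR). With the shared block, H2-K1 had 0.27 and Erap1 0.34 (unadjusted p 0.0165 and 0.0358, adjusted p 0.450 and 0.535 in edgeR). The adjusted p of H2-Q10 and Klrc1 was 0.0453 and 0.0214 with the shared block. The cause of the differences between settings was not tested.

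A prior count of 0.5 left the exact p of each member the same. H2-Q10 has no value with at least 10 counts in every library, since young female 1 had 3. Of 623 values of named genes under alternatives, 51 changed sign. The log2 fold change of H2-T23 was 0.0239 in limma voom, and that of B2m -0.11 in females alone. Tap1 had 0.0153 with the replicate block within sex, 0.13 in females alone and 0.0722 in libraries numbered 2 and 3 only. In libraries over 10000000 counts, Tap2, Tapbp, Erap1 and Nlrc5 had -0.0685, -0.064, -0.11 and -0.23. In males alone, Erap1 and Nlrc5 had -0.0517 and -0.30, and Nlrc5 had -0.15 in limma voom. Psme2 had -0.0074 with median-of-ratios factors, -0.017 with upper-quartile factors, -0.0075 in DESeq2, -0.042 and -0.0307 with the replicate block within sex and shared, and -0.16 in females alone. Psmb6 had 0.14 in limma voom, 0.58 in libraries over 10000000 counts and 0.0008 in females alone. Hspa5 and Cd74 had -0.42 and -0.13 in males alone, and Cd8b1 0.0684 in limma voom and 0.38 in males alone. Jak1 had 0.0242 without the sex term, 0.12 and 0.11 with the block within sex and shared, and 0.27 in females alone. With a replicate left out, the ranges were -0.21 to 0.0716 for Tap1, -0.0844 to 0.55 for Nlrc5, -0.17 to 0.36 for Psme2, -0.49 to 0.28 for Psmb6, -0.0444 to 0.30 for Hspa5 and -0.20 to 0.15 for Jak1.

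With the mean of each replicate number removed, r with Nlrc5 was -0.53 for H2-T23, 0.80 for H2-K1, 0.91 for H2-D1 and 0.85 for H2-Q7. It was 0.48 for B2m, 0.22 for Tap1, 0.73 for Tap2, 0.66 for Tapbp and 0.48 for Erap1. Without the 2 libraries farthest from the median r was 0.53 for H2-Q7, 0.78 for Tap1, 0.47 for Tap2, 0.50 for Tapbp and 0.77 for Erap1. It was 0.33 for H2-T23, -0.47 for H2-K1, -0.65 for H2-D1 and -0.71 for B2m.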
